A study of Mus musculus with 13 samples.

Results

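The 33 genes described here encode the contractile apparatus of smooth muscle and the actin crosslinkers and adhesion proteins that anchor it. They were chosen by name: of the 43346 gene rows in the deposited expression table, these are the 33 whose symbol is on a list of smooth muscle contractile and actin adhesion genes, and each symbol occurred once. By role, 15 are smooth muscle filament genes, 8 are cytoskeletal paralogues of the same protein families and 10 are crosslinking and adhesion genes. The members and roles were chosen with earlier results of these data known. Expression was measured by RNA sequencing in lung fibroblasts, which the series calls Col1a1-GFP cells, a name for mice whose collagen-producing cells carry a green fluorescent reporter driven from the Col1a1 promoter. The groups were fibroblasts taken 30 days after bleomycin (n = 5) and 14 days after bleomycin (n = 3), fibroblasts taken 14 days after pneumonectomy (n = 3) and fibroblasts of sham mice (n = 2). Bleomycin is an injurious drug used to model lung fibrosis, and pneumonectomy is the surgical removal of lung tissue, which is followed by compensatory growth of what is left. The labels give Col1a1-GFP mice of 8 weeks for the bleomycin and sham libraries. They call the 3 pneumonectomy libraries primary sorted fibroblasts and give neither strain nor an age in weeks for them. A header line of the deposited table calls all 4 groups young. The reporter marks cells by the activity of a collagen promoter and not by any of the genes described here, and the labels state neither the sorting gate, the sex of the mice, the dose of bleomycin nor the time of the sham samples. They also do not say that the libraries of a group came from separate animals, so p-values measure the spread between these libraries, which may be partly technical.

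In smooth muscle, filaments of actin slide along filaments of myosin once myosin light chain kinase has phosphorylated the regulatory light chain, and tropomyosin, calponin, caldesmon and transgelin bind along the actin filament. Every cell carries cytoskeletal relatives of these proteins, which serve cell shape, migration and adhesion. Fibroblasts that build smooth muscle actin (Acta2) into stress fibres are called myofibroblasts, and Acta2 is their usual marker in scarring lung. Many genes of the contractile apparatus are transcribed with serum response factor (Srf), which binds a DNA sequence known as the CArG box and acts with myocardin (Myocd) and the related factors Mkl1 and Mkl2.

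The region around the start site was read from RefSeq (assembly GRCm38.p6, 250 bases before to 50 bases after the start) for 29 of the 33 members, in 35 windows. Actg2, Myh11, Svil and Tagln had no window. A CArG box, searched on both strands as CC, then 6 bases that are each A or T, then GG, was found in 4 of the 35 windows (11.4%) and in 535 of 32851 windows of all genes (1.63%). By role these were 1 of 14 windows of filament genes, 2 of 10 of cytoskeletal paralogues and 1 of 11 of crosslinking and adhesion genes. With up to 1 other base allowed among the middle 6, the counts were 7 of 35 (20.0%) and 3280 of 32851 (9.98%). The 4 windows below are shown because they hold such boxes in members of each role, and because Acta2 and Myl9 stood lower, and Cnn2 and Vcl higher, at day 14 after bleomycin than in sham. Capitals mark the boxes.
Acta2 promoter, chr19:34255324-34255623, minus strand: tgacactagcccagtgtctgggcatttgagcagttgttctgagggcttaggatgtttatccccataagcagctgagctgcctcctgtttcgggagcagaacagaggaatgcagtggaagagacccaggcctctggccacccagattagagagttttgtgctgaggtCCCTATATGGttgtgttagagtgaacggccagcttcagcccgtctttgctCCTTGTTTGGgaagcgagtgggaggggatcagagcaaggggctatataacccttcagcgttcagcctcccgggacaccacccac
Myl9 promoter, chr2:156775214-156775513, plus strand: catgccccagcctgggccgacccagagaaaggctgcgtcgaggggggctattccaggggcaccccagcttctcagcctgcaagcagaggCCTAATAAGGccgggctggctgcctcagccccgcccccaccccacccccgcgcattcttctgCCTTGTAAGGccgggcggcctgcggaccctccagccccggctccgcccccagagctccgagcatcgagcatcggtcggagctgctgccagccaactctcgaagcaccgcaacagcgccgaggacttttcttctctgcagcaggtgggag
Cnn2 promoter, chr10:79988350-79988649, plus strand: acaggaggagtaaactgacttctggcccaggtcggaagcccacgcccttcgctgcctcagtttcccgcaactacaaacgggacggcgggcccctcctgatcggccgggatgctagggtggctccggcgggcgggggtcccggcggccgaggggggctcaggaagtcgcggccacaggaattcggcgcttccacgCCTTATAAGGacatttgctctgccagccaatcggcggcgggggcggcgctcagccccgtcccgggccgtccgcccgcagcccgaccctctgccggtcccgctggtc
Vcl promoter, chr14:20929148-20929447, plus strand: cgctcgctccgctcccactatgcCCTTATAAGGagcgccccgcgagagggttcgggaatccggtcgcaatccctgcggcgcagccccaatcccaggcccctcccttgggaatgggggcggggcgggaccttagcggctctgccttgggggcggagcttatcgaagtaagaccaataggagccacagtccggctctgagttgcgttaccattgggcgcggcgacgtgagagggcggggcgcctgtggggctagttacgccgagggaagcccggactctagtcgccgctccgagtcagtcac
Counted from the start site, the exact boxes begin at base -161 in Myl9, at -56 in Cnn2 and at -227 in Vcl. In Myl9 a further box, with 1 other base, begins at -99, and the Acta2 window holds 2 boxes with 1 other base each, at -84 and -34. The fourth exact box lies in 1 of the 2 windows of Myl6. These matches describe the letters of the windows only.

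Levels are given as RPKM, read numbers divided by gene length and by the mapped reads of the library, as the authors deposited them. The number of reads behind each library, estimated from the steps between low values, was 132.6 to 200.3 M at day 30 and 79.9 to 99.9 M at day 14 after bleomycin, 69 to 75.4 M after pneumonectomy and 67.6 and 72 M in sham. The thinnest member was Lmod1 in replicate 1 of day 14 bleomycin, at about 839 reads. All 33 members passed the minimum of 1 RPKM in 2 libraries and were tested among 12938 genes in a single limma fit. A gene is said to be called when its Benjamini-Hochberg adjusted p was under 0.05, and log2 changes stand with their standard error (±) from that fit. RPKM were scaled between libraries for the fit. Without this scaling the median gene was shifted by 0.47 (log2) between day 14 bleomycin and pneumonectomy, by 0.26 between day 14 bleomycin and sham and by -0.21 between pneumonectomy and sham, so changes are relative to the typical gene. Between day 14 bleomycin and pneumonectomy 4684 genes were called higher and 4474 lower, against 7918 higher and 2307 lower on the deposited scale. Fibroblast markers (6 genes, none at 0) summed to 2694 to 4434 RPKM over the 13 libraries, but the sum is carried by collagens and its members differed between groups. Col1a1 was at 1196 to 1633 RPKM at day 14 after bleomycin, against 707.3 to 1427 after pneumonectomy and 437.2 and 670.0 in sham, whereas the proteoglycan gene Dcn was at 117 to 169 RPKM, against 515 to 726 and 1382 and 1856. Lum (36.3 to 37.9 RPKM at day 14 after bleomycin, 79.6 to 111 after pneumonectomy, 166 and 134 in sham) and Pdgfra (31.96 to 44.1, 61.4 to 75.3, and 58.6 and 70.4) were lowest at day 14 after bleomycin too, and the part of this difference in the results was not tested. Some libraries stood apart. Sham replicate 1 held transcripts of both sexes, with Xist at 15.9 and Ddx3y at 2.14 RPKM. Epithelial markers (10 genes) summed to 1248 RPKM in day 30 replicate 3, against 8.37 to 16.5 in the other libraries of that group, and to 502.5 RPKM in pneumonectomy library A, against 99.2 and 46.0 in B and C. Markers of skeletal and cardiac muscle (8 genes) summed to at most 2.76 RPKM in any library.

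Several members were among the most abundant transcripts. By mean RPKM Acta2 ranked 44th of all genes at day 30 and 37th at day 14 after bleomycin, 15th after pneumonectomy and 23rd in sham. Myl6, an essential light chain that smooth muscle and nonmuscle myosins share, ranked 41st, 28th, 47th and 42nd in the same groups. In 13 of the 15 smooth muscle filament genes the highest group mean (deposited RPKM) was after pneumonectomy. In 7 of the 8 cytoskeletal paralogues it was at day 14 after bleomycin. This split depends on the scaling. On the scaled values the paralogues Tagln2, Cnn3 and Myl6, like Myh10, were highest after pneumonectomy, as were the filament genes Tpm1 and Cald1.

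**Figure D1:**
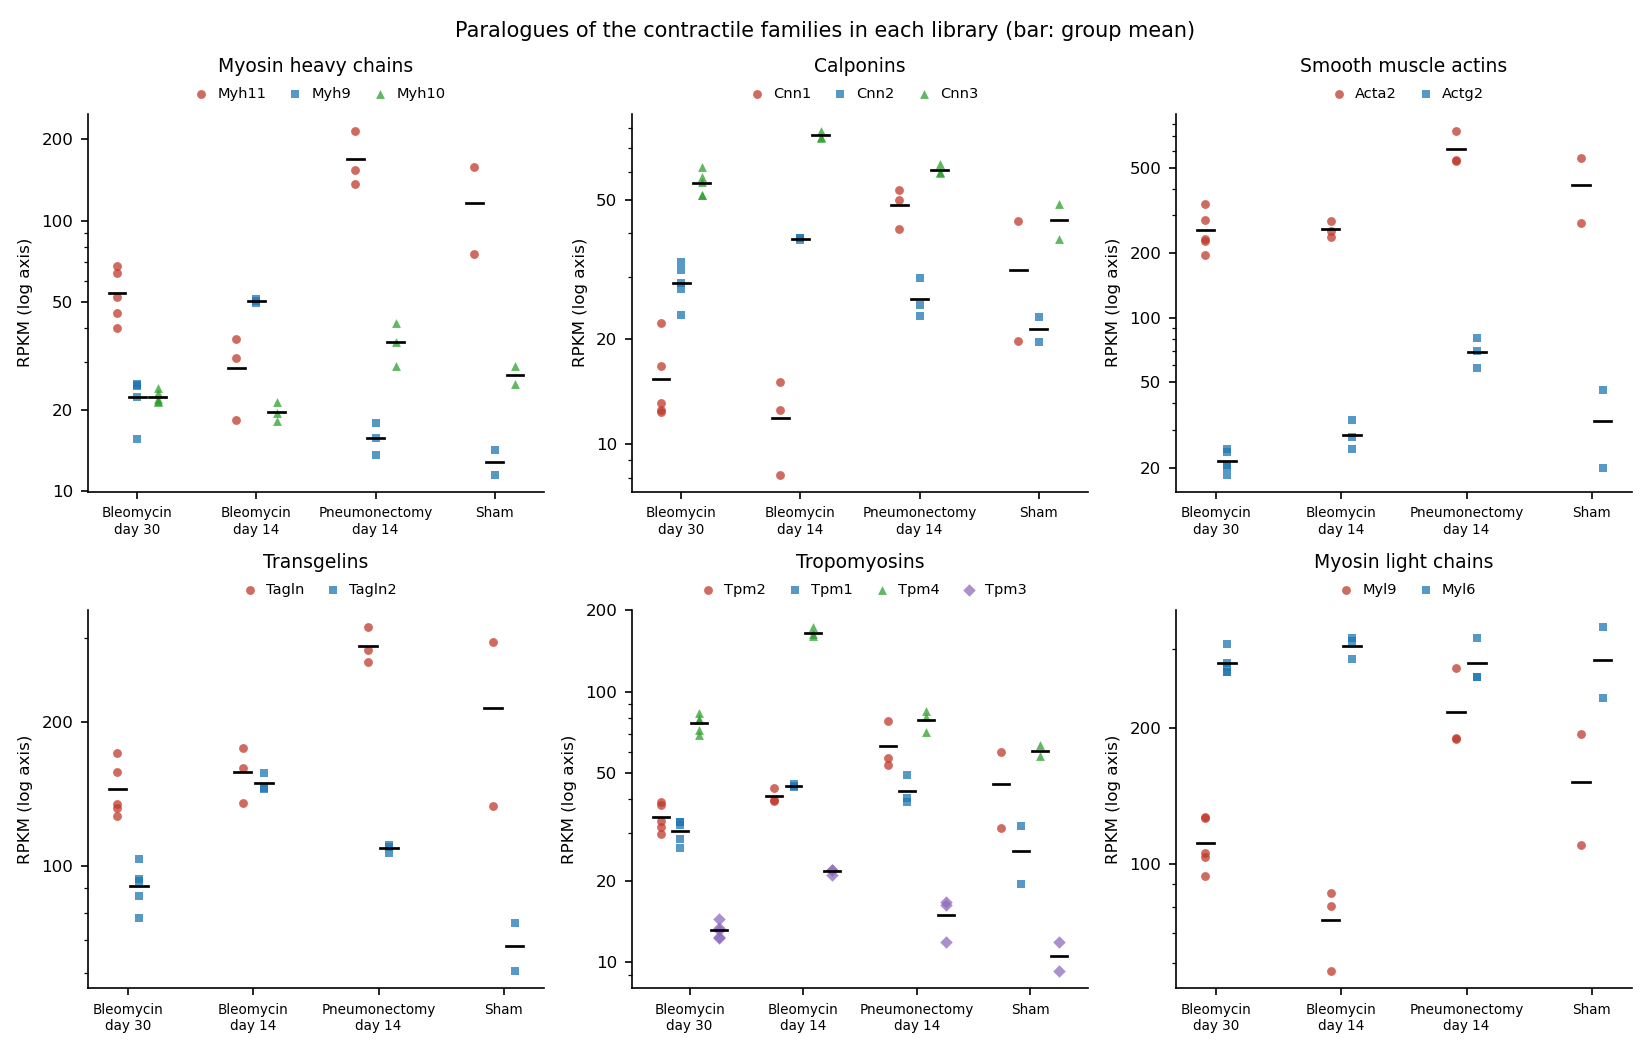
RPKM (log axis) of the members of 6 protein families in each of the 13 libraries, by group, with bars at the group means. In the myosin heavy chain panel the day 14 bleomycin libraries hold Myh11 at 18.3 to 36.5 RPKM and Myh9 at 49.6 to 51.4, whereas in every library of the other 3 groups Myh11 is above Myh9.

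The comparison of the 2 injuries at day 14 set bleomycin against pneumonectomy. For the pneumonectomy libraries the labels give no strain, age in weeks, RNA quality number or PCR cycles. In this comparison and in pneumonectomy against sham, injury cannot be told apart from any difference in mice or preparation. Of the 15 smooth muscle filament genes, 14 were called lower after bleomycin and 0 higher, and 1 was not called (Cald1, caldesmon). Among all genes tested, 70.8% were called in this comparison, 34.6% lower and 36.2% higher. The looser limit of an unadjusted p under 0.05, which keeps every adjusted call, added none by limma (14 lower and 0 higher). Of the 14, 11 were called in every alternative run, that on the deposited scale included, where 11 were lower and 0 higher. Over all 12938 genes that scale gave 2307 lower and 7918 higher. The median change of the 15 genes was -1.59 (log2), beside 0.02 over all genes. In bulk libraries, fewer cells of a type and less RNA per cell cannot be told apart.

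Myh11, the heavy chain of smooth muscle myosin (chromosome 16, 14194535 to 14291372, minus strand, mm10), was at 18.3, 31.1 and 36.5 RPKM at day 14 after bleomycin, against 137, 154 and 214 RPKM after pneumonectomy. The groups did not overlap, and the change was -3.05 ± 0.31 (adjusted p = 5.11e-06 by limma). Cnn1, the calponin of smooth muscle, was at 8.19, 12.5 and 15 RPKM against 41.1, 49.8 and 53.3 (-2.50 ± 0.30). Synpo2, an actin-bundling protein of the Z-disc and of smooth muscle, was at 1.19, 2.18 and 2.27 RPKM against 10.7, 12.1 and 13.7 (-3.13 ± 0.29). Lmod1, which nucleates actin filaments in smooth muscle, was at 2.66, 4.83 and 5.07 RPKM against 14.7, 15.1 and 23.2 (-2.53 ± 0.29). In these 4 genes bleomycin replicate 1 was the lowest of all 13 libraries.

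Acta2 (chromosome 19, 34241090 to 34255590, minus strand) was at 239, 253 and 283 RPKM at day 14 after bleomycin, against 544, 539 and 743 RPKM after pneumonectomy, without overlap (-1.69 ± 0.25, adjusted p = 9.23e-05 by limma). Actg2, the gamma actin of visceral smooth muscle, was at 24.4, 27.7 and 33.5 RPKM against 58.5, 70.1 and 80.3 (-1.75 ± 0.25). The coding sequences of these 2 actins are near-identical and the authors' read counting was not given in the sources used here, so how reads were divided between them is uncertain. Myl9, the regulatory light chain of smooth muscle myosin, was at 57.7, 80.6 and 86.2 RPKM against 189, 190.0 and 272 (-2.0 ± 0.22). Tagln (transgelin, or SM22) was at 135, 160.5 and 177 RPKM against 267, 282 and 315, a change of -1.34 ± 0.23 that was -0.88 on the deposited scale. Smtn (smoothelin) changed by -1.59 ± 0.18. Mylk, the light chain kinase, and Tpm2, a muscle tropomyosin, changed by -1.22 ± 0.16 and -1.06 ± 0.21, or -0.75 and -0.59 on the deposited scale. Csrp1, a LIM-domain protein of smooth muscle filaments, Des (desmin), an intermediate filament, and Tpm1 changed by -0.67 ± 0.13, -0.60 ± 0.24 and -0.39 ± 0.15, and on the deposited scale these calls were lost, at -0.20, -0.13 and 0.07. Csrp1 stayed abundant in every group, between 124 and 231 RPKM over the 13 libraries.

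The cytoskeletal paralogues did not move as one group. Of these 8 genes, 2 were called higher after bleomycin than after pneumonectomy, 2 lower and 4 were not called, with a median change of 0.03. This split depends on the scaling, since on the deposited scale 6 were called higher and 1 lower. Over all 12938 genes that scale gave 7918 higher and 2307 lower. Myh9, the heavy chain of nonmuscle myosin IIA (chromosome 15, 77760587 to 77842175, minus strand), was at 49.6, 50.4 and 51.4 RPKM after bleomycin, against 13.6, 15.8 and 17.8 RPKM after pneumonectomy. All 3 bleomycin libraries lay above all 3 pneumonectomy libraries (1.22 ± 0.16, adjusted p = 3.59e-05 by limma). Tpm4, a tropomyosin of stress fibres, was at 173, 160.0 and 163 RPKM against 80.7, 84.5 and 70.8 (0.61 ± 0.10, or 1.07 on the deposited scale). Myh10, the heavy chain of nonmuscle myosin IIB, went the other way, at 21.3, 19.5 and 18.1 RPKM against 29.0, 35.7 and 41.8 (-1.30 ± 0.12, or -0.84 on the deposited scale). Myl6 changed by -0.33 ± 0.13, a call that was lost under 7 alternatives and had the opposite sign on the deposited scale (0.13). Tagln2, Cnn2, Cnn3 and Tpm3 were not called.

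Markers of other cells moved with this comparison. Endothelial markers (10 genes, none at 0) summed to 293.5, 577 and 531 RPKM in the bleomycin libraries, against 34.0, 18.7 and 44.3 RPKM after pneumonectomy. Macrophage markers (9 of 10 found) summed to 128, 447 and 345 RPKM against 36.3, 22.6 and 29.0. Both cell types carry nonmuscle myosin and Tpm4, and their part in the higher Myh9 and Tpm4 levels was not tested. Smooth muscle markers outside the members (7 genes) summed to 28.8, 35.9 and 36.6 RPKM after bleomycin, against 75.5, 70.5 and 99.2 RPKM after pneumonectomy, and 4 of the 5 that were tested were called lower. Pericyte markers (10 genes), of contractile cells on small vessels, summed to 92.4 to 112 RPKM against 128.5 to 162, again without overlap. Of these genes 6 were called lower, 0 higher and 4 not called. In RPKM Higd1b, Cox4i2 and Trpc6 went the other way, higher in every bleomycin library, and Mcam and Pdgfrb overlapped. Epithelial markers summed to 10.2 to 27.2 RPKM against 46.0 to 502.5, and mesothelial markers (8 genes) to 3.22 to 5.53 against 14.4 to 47.8. The part of these cells in the lower filament genes was not tested.

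**Figure D2:**
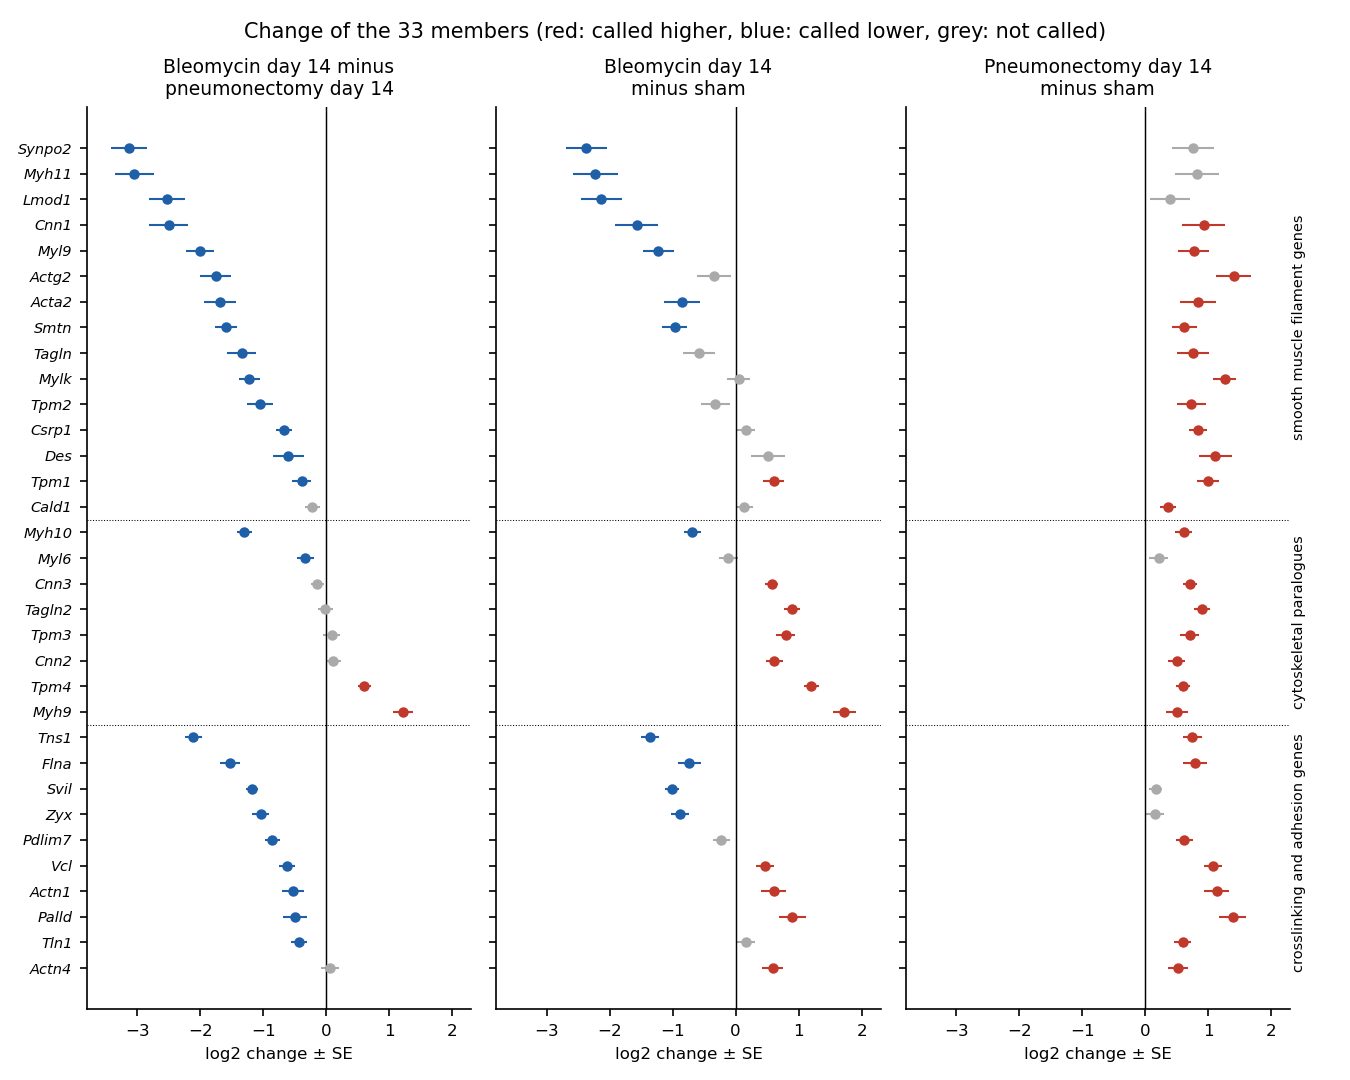
Log2 change with standard error of each of the 33 members in 3 comparisons, ordered within each role by the change between day 14 bleomycin and pneumonectomy. In the left panel the smooth muscle filament genes lie to the left of 0 (Tpm1 and Cald1 to its right on the deposited scale) and Myh9 and Tpm4 to its right, and in the right panel all 33 points lie to the right of 0, of which 3 would lie to its left on the deposited scale.

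Ratios between paralogues in the same library do not depend on the scaling between libraries. In log2, Myh11 over Myh9 was -1.44, -0.69 and -0.50 at day 14 after bleomycin, against 3.32, 3.28 and 3.58 after pneumonectomy and 3.47 and 2.69 in sham. Bleomycin at day 14 was the single group in which Myh9 was above Myh11 in RPKM, in all 3 libraries. Of the summed RPKM of Myh11, Myh9 and Myh10, Myh9 made up 55.6%, 49.9% and 48.5% at day 14 after bleomycin, against 7.58%, 7.70% and 6.5% after pneumonectomy and 7.06% and 10.4% in sham. The myosin sum itself was 89.2, 101 and 106 RPKM after bleomycin, against 179, 205 and 274 after pneumonectomy and 201 and 111 in sham. Tpm4 made up 59.3% to 62.2% of the tropomyosin sum at day 14 after bleomycin, 33.7% to 42.6% after pneumonectomy and 37.8% and 49.0% in sham.

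The calponin and transgelin families showed the same order, and the light chain ratio was lower after bleomycin as well. Myl9 over Myl6 sets a regulatory light chain over an essential light chain that both kinds of myosin share. It is therefore not a ratio of muscle to nonmuscle forms. Cnn1 over Cnn2 was -2.23, -1.62 and -1.34 after bleomycin, against 0.82, 0.99 and 0.84 after pneumonectomy. Tagln over Tagln2 was -0.21, 0.14 and 0.28 against 1.32, 1.36 and 1.51, and Myl9 over Myl6 was -2.30, -1.96 and -1.88 against -0.46, -0.45 and -0.23. Of the 11 ratios computed, 10 were lower after bleomycin than after pneumonectomy without overlap, and Actg2 over Acta2 overlapped. Against sham 9 were lower without overlap, Actg2 over Acta2 was higher and Actn1 over Actn4 overlapped. Single genes, on scaled values and in either direction, gave libraries without overlap in 74.2% and 76.3% of cases in these 2 comparisons. The ratios are not separate observations, since Myh9, Tpm4 and Cnn1 each enter more than 1 of them, so the share of single genes is not a like measure. Myh10 over Myh9 and Tpm3 over Tpm4 set cytoskeletal paralogues against each other. No test was made of the ratios.

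**Figure D3:**
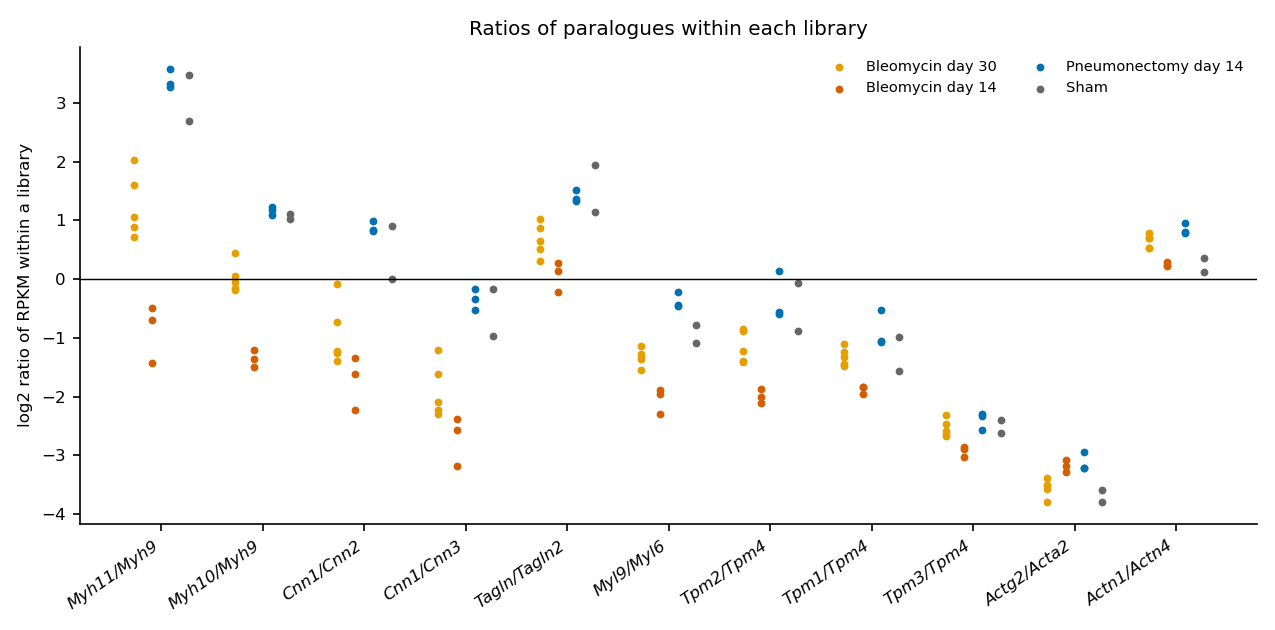
Log2 ratio of RPKM between paralogues within each library, for 11 pairs and 4 groups. Myh11 over Myh9 lies at -1.44 to -0.50 in the day 14 bleomycin libraries, at 0.72 to 2.03 in day 30 bleomycin and at 2.69 to 3.58 in pneumonectomy and sham.

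Day 14 bleomycin against sham asked how the genes stood in injured lung relative to sham. Here 11 members were called higher, 12 lower and 10 not called, in a comparison that called 63.3% of all genes (33.4% higher, 29.9% lower). The roles divided: 7 of 15 smooth muscle filament genes were called lower and 1 higher, whereas 6 of 8 cytoskeletal paralogues were called higher and 1 lower. On the deposited scale the filament genes gave 6 lower and 4 higher, and the paralogues 6 higher and 1 lower. All members gave 15 higher and 11 lower there, beside 6193 higher and 2451 lower of all 12938 genes. The count of higher calls was 7 without sham replicate 2 and 7 when the 2 groups were fitted alone, and 17 members were called in every alternative.

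Among the filament genes, Myh11 was at 18.3, 31.1 and 36.5 RPKM against 158 and 75 in sham (-2.23 ± 0.35, adjusted p = 0.000182 by limma). Both sham libraries lay above all 3 bleomycin libraries, although they differed from each other. Synpo2 and Lmod1 changed by -2.37 ± 0.33 and -2.13 ± 0.32, Myl9 by -1.23 ± 0.25, Cnn1 by -1.57 ± 0.34 and Smtn by -0.97 ± 0.20. Without sham replicate 1 the changes of Cnn1 and Smtn were -1.01 and -0.64. Acta2, at 239 to 283 RPKM against 556 and 278 in sham, changed by -0.85 ± 0.28, a call lost without sham replicate 1 (-0.36), on the deposited scale (-0.61) and with the 2 groups alone. Tpm1 was the filament gene called higher (0.60 ± 0.17), a call lost with the 2 groups alone (0.55), and its change was 0.24 without sham replicate 2. Tagln, Actg2, Tpm2, Mylk, Csrp1, Des and Cald1 were not called, although Csrp1, Des and Cald1 were called higher on the deposited scale.

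Among the cytoskeletal paralogues, Myh9 was at 49.6, 50.4 and 51.4 RPKM against 14.2 and 11.5 in sham (1.73 ± 0.18, adjusted p = 7.48e-06 by limma). Tpm4 was at 173, 160.0 and 163 RPKM against 63.3 and 57.8 (1.20 ± 0.11), and Tagln2 was at 157, 145 and 146 RPKM against 76.1 and 60.4 (0.89 ± 0.13). The remaining higher calls were smaller, with Tpm3 at 0.80 ± 0.15, Cnn2 at 0.61 ± 0.13 and Cnn3 at 0.57 ± 0.11. All 6 were called in every alternative, as was Myh10 in the lower direction (-0.69 ± 0.14, or -0.45 on the deposited scale). Endothelial markers summed to 293.5 to 577 RPKM after bleomycin, against 25.7 and 21.6 in sham, and macrophage markers to 128 to 447 against 30.4 and 27.6.

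Pneumonectomy against sham gave a single direction. Of the 33 members, 27 were called higher, 0 lower and 6 not called, where 42.0% of all genes were called (22.6% higher, 19.3% lower). At an unadjusted p under 0.05 limma gave 29 higher and 0 lower, and all 33 log2 changes were above 0 (30 on the deposited scale), with a median of 0.75. The count rests on the scale and on the sham libraries. It was 16 on the deposited scale, 18 with upper-quartile scaling, 14 with the 2 groups alone, 13 without sham replicate 2 and 18 without pneumonectomy library C, with 0 lower in each. In every alternative 12 members were called. Over all 12938 genes the deposited scale gave 1762 higher and 5185 lower. Markers of other cells moved with this comparison as well. Smooth muscle markers outside the members summed to 70.5 to 99.2 RPKM after pneumonectomy, against 73.5 and 44.2 in sham, and 3 of the 5 tested were called higher. Pericyte markers summed to 128.5 to 162 RPKM against 133 and 105. Epithelial markers summed to 46.0 to 502.5 against 16.6 and 11.9, and mesothelial markers to 14.4 to 47.8 against 6.54 and 5.88. Endothelial markers (10 genes) summed to 18.7 to 44.3 RPKM against 25.7 and 21.6, but 9 of them were called higher and 1 lower. Much of their sham sum was Tek, at 15.5 and 15.9 RPKM in sham against 4.15 to 5.53 after pneumonectomy. Their part in the higher members was not tested.

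Of these 12, Palld (palladin), a scaffold of actin bundles, was at 8.12, 8.95 and 9.98 RPKM after pneumonectomy, against 4.45 and 3.47 in sham (1.39 ± 0.21, adjusted p = 0.000459 by limma). Mylk was at 39.4, 44.7 and 49.1 RPKM against 25.2 and 18.2 (1.26 ± 0.18). Vcl (vinculin), which links adhesions to actin, was at 45.8, 56.1 and 54.3 RPKM against 34.4 and 23.7 (1.08 ± 0.15), and 25.5% of its exon length lies opposite exons of Ap3m1, a gene of at most 19.5 RPKM that unstranded counting cannot separate. In these 3 genes every pneumonectomy library lay above both sham libraries, and 61.1% of all genes had groups without overlap in this comparison. Actg2, at 58.5, 70.1 and 80.3 RPKM against 46.1 and 19.9, changed by 1.41 ± 0.28, and by 0.80 without sham replicate 2. Tagln2 changed by 0.91 ± 0.13, Csrp1 by 0.84 ± 0.15, Tns1 (tensin 1) by 0.75 ± 0.15 and Cnn3 by 0.71 ± 0.11. Tpm1 and Actn1 (alpha-actinin 1) changed by 0.99 ± 0.17 and 1.14 ± 0.20, or 0.63 and 0.72 without sham replicate 2. Tpm4 and Pdlim7 changed by 0.60 ± 0.11 and 0.62 ± 0.14, or 0.37 and 0.40 on the deposited scale, and Pdlim7 by 0.36 without sham replicate 2. Acta2 was called (0.84 ± 0.28), and that call was lost under 7 alternatives, with 0.33 without sham replicate 2.

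Bleomycin at day 14 and pneumonectomy share the 2 sham libraries, so their changes relative to sham are given side by side without a measure of likeness. Myh9 and Tpm4 were the 2 members called higher against sham after both injuries and higher after bleomycin than after pneumonectomy, although the call of Myh9 after pneumonectomy (0.51 ± 0.18) was lost without sham replicate 2 (0.36) and on the deposited scale (0.29). Myh10, Tns1, Flna, Smtn, Myl9, Cnn1 and Acta2 were called lower than sham after bleomycin and higher than sham after pneumonectomy. Of these 7, Tns1 alone had both calls in every alternative. Without sham replicate 2 the calls after pneumonectomy were lost for Myh10 (0.50), Flna (0.44), Smtn (0.29), Myl9 (0.36), Cnn1 (0.36) and Acta2 (0.33), and without sham replicate 1 the calls after bleomycin were lost for Flna (-0.39) and Acta2 (-0.36). Myh11, Synpo2, Lmod1, Zyx and Svil were called lower than sham after bleomycin and were not called after pneumonectomy.

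Of the 10 crosslinking and adhesion genes, 9 were called lower after bleomycin than after pneumonectomy, 0 higher and 1 not called (Actn4, alpha-actinin 4). Among all genes 34.6% were called lower and 36.2% higher. On the deposited scale 5 were lower and 1 higher (Actn4), beside 2307 lower and 7918 higher of all 12938 genes. The looser limit of an unadjusted p under 0.05 added no call by limma (9 lower and 0 higher). Of the 9, 5 were called in every alternative, whereas Vcl, Actn1, Palld and Tln1 (talin) lost the call on the deposited scale. Tns1, which ties actin to integrins, was at 17.3, 15 and 17.8 RPKM after bleomycin, against 44.8, 49.8 and 64.4 RPKM after pneumonectomy and 39.7 and 33.2 in sham. Its change was -2.11 ± 0.13 against pneumonectomy (adjusted p = 1.62e-07 by limma) and -1.36 ± 0.15 against sham. Flna (filamin A), an X-linked actin crosslinker, was at 99.9, 93.6 and 102 RPKM after bleomycin, against 175, 205 and 241 RPKM after pneumonectomy (-1.53 ± 0.17). Svil (supervillin), an actin-binding protein of the membrane, was at 6.8, 7.69 and 7.42 RPKM after bleomycin, against 11.2, 12.9 and 12.0 RPKM after pneumonectomy and 12.3 and 12.7 in sham. It was the member whose 2 sham libraries agreed best, and it changed by -1.18 ± 0.10 against pneumonectomy (-0.71 on the deposited scale) and by -1.01 ± 0.11 against sham. Zyx (zyxin), a protein of strained adhesions, changed by -1.04 ± 0.13 (-0.58 on the deposited scale) and -0.88 ± 0.15 in the same comparisons. Against sham, bleomycin at day 14 gave 4 of the 10 called higher and 4 lower, beside 33.4% and 29.9% of all genes. The higher calls were Palld (0.90 ± 0.21), Actn1 (0.61 ± 0.20), Actn4 (0.59 ± 0.16) and Vcl (0.46 ± 0.15), of which the last 3 were lost without sham replicate 2, at 0.19, 0.28 and 0.19.

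**Figure D4:**
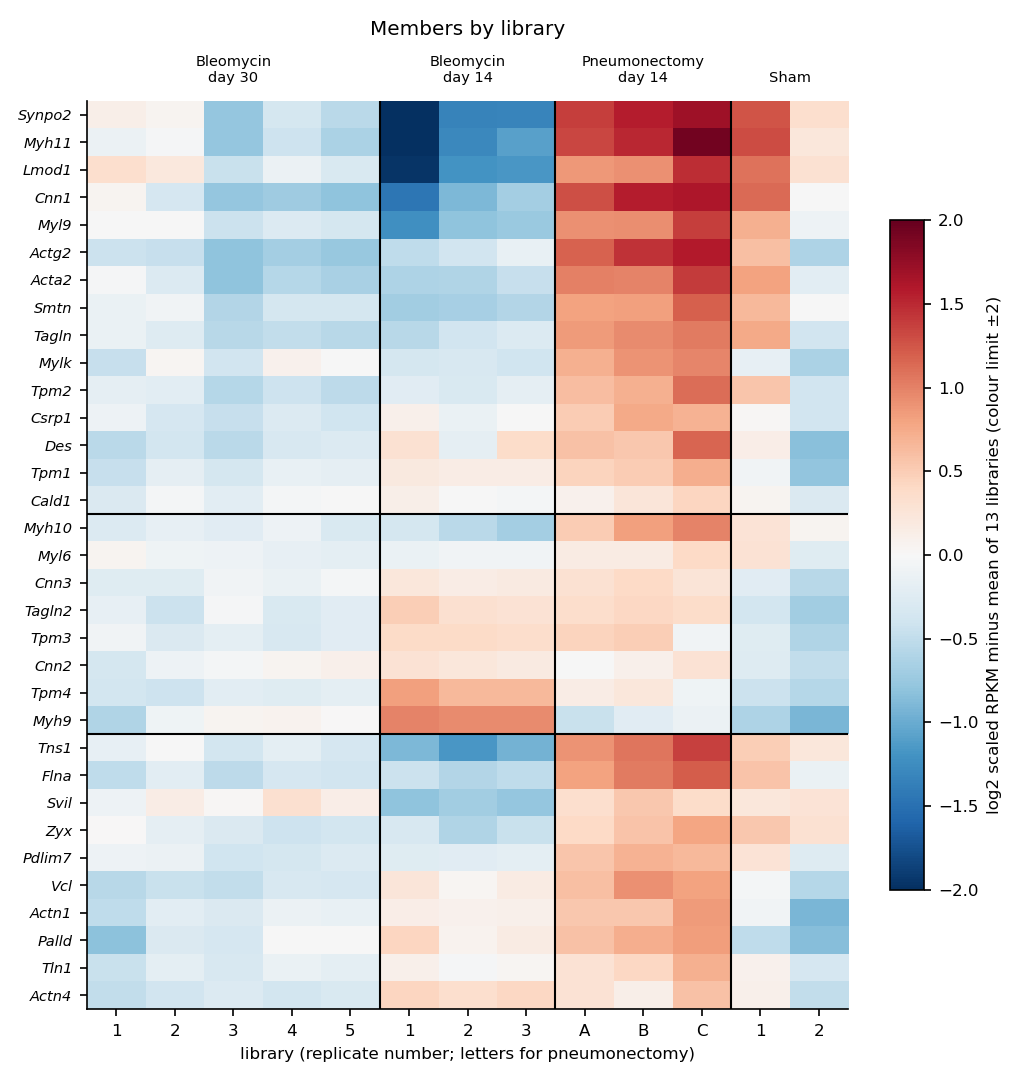
Scaled log2 RPKM of each member in each library, minus its mean over the 13 libraries, with members grouped by role and libraries by group. The day 14 bleomycin columns are lowest in the upper rows (Synpo2, Myh11, Lmod1, Cnn1, Myl9) and highest in the rows of Tpm4 and Myh9, and sham replicate 2 is below sham replicate 1 in 32 of the 33 rows.

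The comparison of day 30 with day 14 after bleomycin asked which changes persisted. All 5 day 30 libraries had Xist at 19.9 to 29.2 RPKM and the Y-linked genes Ddx3y, Kdm5d, Eif2s3y and Uty listed at 0, whereas the day 14 libraries had Xist at 0.0102 to 0.0126 and Ddx3y at 9.91 to 10.45 RPKM, so time and sex cannot be told apart. Endothelial markers summed to 13.8 to 16.8 RPKM at day 30, against 293.5 to 577 at day 14, and their part in the changes was not tested. Of the members, 7 were called higher at day 30, 13 lower and 13 not called, where 59.6% of all genes tested were called (28.9% higher, 30.7% lower). Without day 14 replicate 1 the lower calls numbered 7, and 11 members were called in every alternative.

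Myh9 was at 15.6, 22.3, 24.4, 25.0 and 24.6 RPKM at day 30, against 49.6, 50.4 and 51.4 RPKM at day 14, a change of -1.07 ± 0.14 (adjusted p = 6.41e-05 by limma). Tpm4 was at 72, 69.3, 79.5, 78.3 and 83.4 RPKM against 173, 160.0 and 163 (-0.99 ± 0.09). In both genes each day 30 library lay below each day 14 library. Actn4, Tpm3, Tagln2, Vcl and Cnn3 were also called lower in every alternative, by -0.76 ± 0.13, -0.60 ± 0.12, -0.59 ± 0.10, -0.59 ± 0.12 and -0.33 ± 0.09. Lmod1 was higher at day 30, at 12.9, 11.7, 7.38, 9.39 and 8.43 RPKM against 2.66, 4.83 and 5.07 (1.38 ± 0.26), as was Synpo2, at 5.60, 5.30, 2.95, 4.04 and 3.62 RPKM against 1.19, 2.18 and 2.27 (1.28 ± 0.26). Svil and Tns1 changed by 0.86 ± 0.09 and 0.79 ± 0.12. Myh11 was at 63.9, 67.7, 40.2, 52.2 and 45.7 RPKM at day 30, and its change from day 14 was 1.07 ± 0.28 (adjusted p = 0.00634 by limma), a call that not every alternative kept. Acta2, Actg2, Tagln and Tpm2 were not called, and Acta2 was at 341, 284, 196, 234 and 228 RPKM at day 30, a range that spans the 3 day 14 libraries.

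The myosin ratio at day 30 lay between the other groups. Myh11 over Myh9 was 2.03, 1.60, 0.72, 1.06 and 0.89 (log2) at day 30, above every day 14 bleomycin library and below every sham and pneumonectomy library. Of the 11 ratios, which share genes, 9 were higher at day 30 than at day 14 after bleomycin without overlap. Actg2 over Acta2 was lower and Cnn1 over Cnn2 overlapped, where single genes had libraries without overlap in 59.1% of cases. Against sham 6 ratios were lower at day 30 without overlap, Actn1 over Actn4 was higher and 4 overlapped, beside 45.0% of single genes without overlap. Relative to sham, day 30 gave 1 member called higher (Myh9), 9 lower and 23 not called. Of all genes 28.8% were called (14.8% higher, 14.1% lower). On the deposited scale 5 members were called higher and 6 lower, beside 3105 higher and 957 lower of all 12938 genes. Ddx3y was at 0 in all 5 day 30 libraries, against 2.14 and 11.35 RPKM in sham, so sex and injury cannot be told apart here either. Macrophage markers summed to 207 to 717.5 RPKM at day 30, against 30.4 and 27.6 in sham, and their part in the higher Myh9 was not tested. None of the 9 lower calls remained without sham replicate 1 and the higher one was lost without sham replicate 2, so these calls depend on which sham library is used.

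The 2 sham libraries were unequal in these genes. Sham replicate 1 was above sham replicate 2 in 32 of the 33 members, by a median of 0.53 on the scaled log2 values, where the median gene differed by 0.00. The smooth muscle filament genes differed most, by a median of 0.92, and the cytoskeletal paralogues by 0.32. Actg2 differed by 1.21 and Svil by -0.05. Smooth muscle markers outside the members summed to 73.5 RPKM in replicate 1 and 44.2 in replicate 2, and pericyte markers (10 genes) to 133 and 105, and their part in this difference was not tested. Replicate 1 is also the library with transcripts of both sexes.

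**Figure D5:**
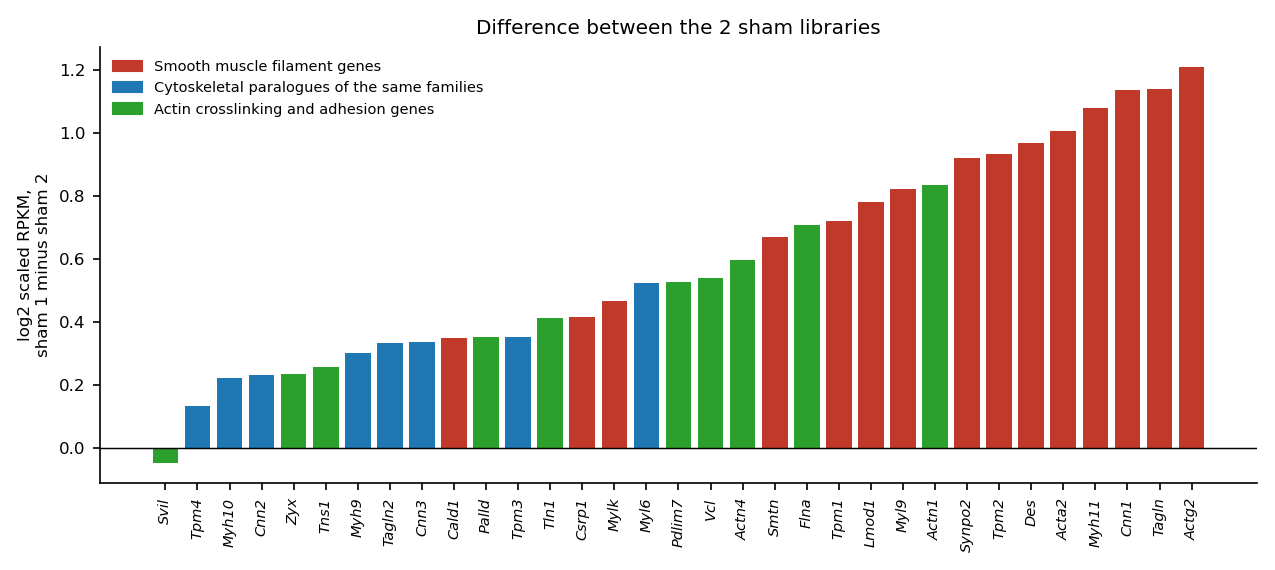
Difference in scaled log2 RPKM between sham replicate 1 and sham replicate 2 for each member, coloured by role. Of the 33 bars, 32 lie above 0 and the smooth muscle filament genes hold the highest, up to 1.21 for Actg2.

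Of a list of 52 other genes of the actin and Srf pathways, 51 were found and 50 tested. Between day 14 bleomycin and pneumonectomy 12 were called higher, 25 lower and 13 not called. Among all genes 70.8% were called, 36.2% higher and 34.6% lower. The total called in this list is near that of genes in general, but by direction more of its genes were called lower than higher. Srf was at 9.68, 9.18 and 9.95 RPKM after bleomycin, against 14.3, 14.3 and 13.3 RPKM after pneumonectomy (-1.0 ± 0.13, or -0.54 on the deposited scale). Myocd, its smooth muscle cofactor, was at 0.995, 1.26 and 1.18 RPKM against 2.48, 3.09 and 3.31 (-1.74 ± 0.21), and Mkl2 was higher, at 4.31, 4.69 and 5.28 RPKM against 1.84, 1.88 and 1.98 (0.82 ± 0.08, or 1.28 on the deposited scale). Mkl1 was not called. In the kinase arm, Rock1, a kinase that keeps the light chain phosphorylated, changed by -1.12 ± 0.07 (-0.66 on the deposited scale), and Ppp1r12b, a subunit of the phosphatase that removes the phosphate, by -2.35 ± 0.15.

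Of 11 actin monomer and turnover genes tested, 5 were called higher after bleomycin than after pneumonectomy and 3 lower, which is near the share of all genes (36.2% higher, 34.6% lower). Gsn (gelsolin), which severs actin filaments, was at 209, 349 and 289 RPKM at day 14 after bleomycin, against 3201, 3737 and 2741 RPKM after pneumonectomy and 6189 and 5589 in sham (-4.0 ± 0.26 and -4.66 ± 0.29). Cfl1 (cofilin), which also severs filaments, was at 236, 231 and 236 RPKM after bleomycin, against 84.7, 78.2 and 92.4 RPKM after pneumonectomy (1.00 ± 0.08). Pfn1 (profilin), which feeds monomers to growing filaments, changed by 0.98 ± 0.08. Actb and Actg1, the cytoplasmic actins, were not called in either comparison of day 14 bleomycin on scaled values. In deposited RPKM Actb was at 288 to 302 after bleomycin, 166 to 177.5 after pneumonectomy, and 268 and 163 in sham. Actg1 was at 145 to 158, 106 to 138, and 148 and 95.5 RPKM in the same groups. Among focal adhesion genes called above sham after both injuries were Bcar1, an adaptor, at 1.46 ± 0.11 after bleomycin and 1.38 ± 0.11 after pneumonectomy, Vasp at 1.00 ± 0.10 and 0.78 ± 0.10, and the integrin subunit Itgb1 at 0.71 ± 0.11 and 0.82 ± 0.11. Of the 20 genes of that part of the list, 9 were called higher and 5 lower after bleomycin, beside 33.4% and 29.9% of all genes, and 13 higher and 0 lower after pneumonectomy, beside 22.6% and 19.3%.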

How the data were processed

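RNA of 13 libraries of mouse lung fibroblasts was analysed from the RPKM (read numbers over gene length and library size) that the authors deposited for 43346 genes. Reads were placed on mm10, also named GRCm38 for the pneumonectomy libraries, per the submitters' processing notes; the aligner, counter and annotation are not given in the sources used here. Input was 200 ng of total RNA and a TruSeq v2 kit, per the labels' protocols, with an RNA quality number of at least 6 and 12 PCR cycles for the sham and bleomycin libraries alone. Groups came from the labels. The 3 pneumonectomy columns lack numbers and are named A, B and C. No values of 2 libraries were identical.

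Depth was estimated from the steps between low values and GENCODE M21 gene lengths; of 90467 low values, 81.2% were whole reads within 0.05 of a read. A gene was kept if 2 or more libraries reached 1 RPKM (12938 genes). Libraries were scaled by trimmed mean ratios (TMM-type factors, with 30% of the ratios and 5% of the levels trimmed), 0.1 was added, and log2 values were fitted with limma 3.58.1 in R 4.3.3 (a mean per group, empirical Bayes with trend, robust). Adding 0.1 slightly understates changes of low genes. P-values are two-sided and Benjamini-Hochberg adjusted over all genes kept. The script was tested on simulated data. Alternatives were a pseudocount of 1, no filter, upper-quartile scaling, no scaling, the compared groups alone, each library left out and the replicate number as a block.

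The members, lists and roles were chosen with earlier results of these data known. Members called between day 14 bleomycin and pneumonectomy, or reaching a group mean of 100 RPKM, could be given in full. Of the other actin and Srf pathway genes, the 5 called with the smallest p in each of 3 comparisons were named, with Srf, Myocd, Mkl1, Mkl2, Actb, Actg1 and Gsn. Overlapping genes cannot be separated, since the kit does not mark strand. Opposite Tagln lies the antisense gene Gm48529, over 62.4% of its exon length, which was not analysed here.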

Additional observations from a re-analysis of the deposited data

Results flagged for a closer look

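Myh9, the nonmuscle myosin heavy chain, had 1 library apart from the rest of its group at day 30 after bleomycin. Replicate 1 was at 15.6 RPKM, against 22.3 to 25.0 RPKM in the other 4 libraries, and its gap to the nearest of them was 0.712 of the range of the group, above the critical value of 0.71 for 5 libraries. In all, 44 sets of levels were examined and this was the 1 that passed, where chance passes about 1 in 20. In the same library Acta2 (341 RPKM) and Cnn1 (22.2 RPKM) had their highest levels of the group.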

How the results depend on the processing

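Counts of members called are given as higher and lower. Those on the deposited scale are to be read beside the counts over all genes on that scale, given above. In day 14 bleomycin against sham (11 and 12) the higher count was 7 with the 2 groups alone, and leaving out a library gave 7 to 12 higher and 10 to 17 lower. In pneumonectomy against sham (27 and 0) the higher count was 16 on the deposited scale, 14 with the 2 groups alone, 18 with upper-quartile scaling and 13 to 30 without a library, with 0 lower throughout. In day 14 bleomycin against pneumonectomy (2 and 25) the higher count was 7 on the deposited scale, and leaving out a library gave 2 higher and 20 to 26 lower. In day 30 against day 14 bleomycin (7 and 13) leaving out a library gave 6 to 8 higher and 7 to 11 lower. In day 30 bleomycin against sham (1 and 9) the counts were 5 and 6 on the deposited scale and 5 lower with the 2 groups alone, and without a library they were 0 to 5 and 0 to 13. The cause of these moves was not tested.

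Between day 14 bleomycin and pneumonectomy the deposited scale turned the sign of 6 members, of which Myl6 (0.13), Tpm1 (0.074) and Tln1 (0.034) had been called lower and Cald1 (0.24), Cnn3 (0.33) and Tagln2 (0.45) had not been called. Cnn3 and Tagln2 were called higher on that scale. Of the other named genes called, Lims1 (0.22) turned. The median gene shifts by 0.47 there. A pseudocount of 1 moved none of the 11 paralogue ratios by more than the spread between libraries.

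Same-numbered libraries did not deviate together (correlations of -0.127 to 0.136), so the numbers were not taken as pairs. With a replicate block, members called were 8 higher and 11 lower in day 14 bleomycin against sham, 5 and 9 in day 30 against day 14 bleomycin and 0 and 0 in day 30 bleomycin against sham. Myh11 in day 30 against day 14 bleomycin was then 1.17 (adjusted p = 0.069 by limma). No paired analysis was possible for pneumonectomy because its columns carry no numbers.

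The contrasts with sham rest on 2 libraries, and a contrast without 1 of them assumes that the other varies like the remaining groups. With RPKM alone, counting error was not modelled, and the thinnest member still rested on about 839 reads.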

Other observations

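Within day 30 bleomycin, replicate 3 had the lowest RPKM of its group for Acta2 (196), Myh11 (40.2), Lmod1 (7.38), Synpo2 (2.95), Tagln (127) and Myl9 (94.0), and replicate 1 had the highest Acta2 (341), Lmod1 (12.9) and Cnn1 (22.2). Replicate 3 was also the library with epithelial marker RNA (1248 RPKM summed) and the highest macrophage sum of the group (717.5 RPKM). The part of either in its lower filament genes was not tested.

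Within pneumonectomy, library C was the highest for Acta2 (743 RPKM, against 544 and 539) and Myh11 (214 RPKM, against 137 and 154), and it also held the highest sums of smooth muscle markers outside the members (99.2 RPKM), pericyte markers (162 RPKM) and mesothelial markers (47.8 RPKM). Acta2 made up 88.5% to 93.3% of its sum with Actg2 in all 13 libraries.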
